A study of Mus musculus with 2 samples.

Results

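The IL-6 family of cytokines, its receptor chains, the transcription factor STAT3 and the STAT3 inhibitor SOCS3 were examined through 10 genes, Il6, Lif, Il11, Clcf1, Il6ra, Il6st, Lifr, Osmr, Stat3 and Socs3, of 55573 genes listed in the count table. The genes were selected by symbol with their reads in these same libraries already known, so their differences are given as a description and not as a test. RNA-seq was carried out on mesenteric arteries, the resistance arteries that feed the intestine, of wild-type C57BL/6 mice 10 weeks old. One library came from arteries kept in 5 mM K+ (control) and the other from arteries depolarized in 60 mM K+, with 60 min stated for both, and each library pooled the tissue of 2 mice. All solutions contained tetrodotoxin, added with the aim of keeping autonomic nerves from being activated. The arterial wall was frozen after connective tissue had been cleared away, so that smooth muscle, endothelium, fibroblasts and resident leukocytes could all contribute RNA. One description in the methods has the control segment cut off distally after incubation without perfusion. The rest of the bed was then perfused with 60 mM K+. Under that description K+, segment, perfusion and time in solution cannot be told apart. Likewise, in such bulk tissue, fewer cells of a type and less RNA per cell cannot be told apart.

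Cytokines of this family are small secreted helical proteins that signal through a shared receptor chain, gp130, encoded by Il6st. IL-6 first binds its own chain, encoded by Il6ra, whereas leukemia inhibitory factor (LIF) uses gp130 with the chain encoded by Lifr, and oncostatin M uses gp130 with the chain encoded by Osmr. The receptors activate Janus kinases, which phosphorylate STAT3, and STAT3 in turn induces Socs3, whose product binds gp130 and its kinases and ends the signal. In the vessel wall, smooth muscle cells, fibroblasts and endothelial cells are all known sources of IL-6.

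In all, 10480918 reads were counted in the 5 mM K+ library and 11289598 in the 60 mM K+ library. Counts are given beside CPM, the reads per 1000000 of a library size scaled by the trimmed mean of M-values (TMM), and log2(fold-change) is the 60 mM K+ value over the 5 mM K+ value. Brackets give 95% exact intervals, which cover counting error only. Each condition had 1 RNA-seq library, so no difference has a replicate within these data. The paper's separate qPCR, which covered Il6, is not used here. A gene is said to pass both thresholds when its q-value was under 0.005 and its absolute log2(fold-change) was above 1. The cut-offs are those named in the study's methods, but the q-values come from a random-sampling test reimplemented here on the deposited counts, so the calls are not the study's own list. The test compares these 2 libraries, not the conditions. Of 21374 genes with at least 1 read, 2.11% passed both thresholds upward and 1.10% downward. Over the 14829 genes with at least 10 reads, the median log2(fold-change) was -0.0047, with quartiles of -0.32 and 0.30.

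Of the 10 genes, all with at least 10 reads, 4 passed both thresholds upward (Il6, Lif, Il11 and Socs3) and 0 passed downward, beside 2.11% and 1.10% of all genes. The same 4 genes had a counting interval wholly above 1, as did 1.77% of genes with at least 10 reads. Of the other 6 genes, Osmr, Stat3 and Clcf1 were higher in 60 mM K+ by less than the fold threshold, Lifr was lower, and Il6ra and Il6st lay near 0. The 3 ligands that passed stood at log2(fold-change) above 2, whereas no receptor chain reached 1. Because these genes were picked with such values in view, nothing is read from their count against the background.

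**Figure D1:**
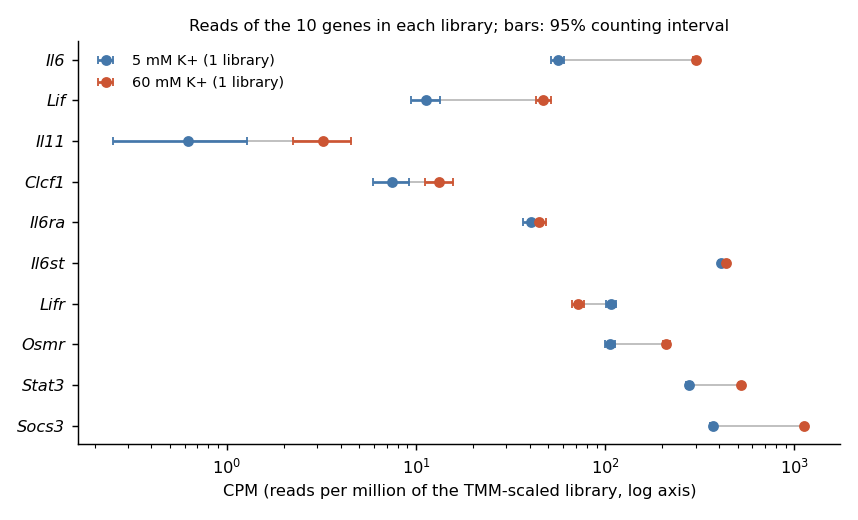
CPM of the 10 genes (log axis) in the 5 mM K+ library (blue) and the 60 mM K+ library (orange), with bars for the 95% counting interval of each value. Il6, Lif, Il11 and Socs3 lie well to the right in 60 mM K+, Lifr lies to the left, and the Il6ra and Il6st points nearly coincide.

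Il6 encodes interleukin 6, the founding cytokine of the family (chromosome 5, 30339701 to 30346508 on mm9). It had 631 reads in the control and 3152 in the depolarized library, or 56.0 and 300.1 CPM. The depolarized library was thus 5.36-fold higher, with a log2(fold-change) of 2.42 [2.30 to 2.55]. By this value Il6 ranked 117 of 14829 genes. Lif encodes leukemia inhibitory factor (chromosome 11, 4157560 to 4172517). It had 127 and 495 reads, or 11.3 and 47.1 CPM, a log2(fold-change) of 2.06 [1.78 to 2.36].

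Il11 encodes interleukin 11, a family member linked to fibroblast activation and fibrosis (chromosome 7, 4724669 to 4734460). It was near the limit of detection, with 7 reads in the control and 34 in the depolarized library. Its log2(fold-change) of 2.38 was close to that of Il6, but the interval ran from 1.19 to 3.80, so that the fold lay anywhere from 2.27 to 13.9. Clcf1 encodes cardiotrophin-like cytokine factor 1, which signals through the ciliary neurotrophic factor receptor (chromosome 19, 4214238 to 4223490). It had 84 and 139 reads, and its log2(fold-change) of 0.83 [0.43 to 1.24] had an interval that lay above 0 and spanned the threshold of 1. Its gene body overlaps another gene on the opposite strand, with no shared exon. Counted as reads, not corrected for length, the 4 ligand genes together had 849 reads in the control and 3820 in the depolarized library. Il6 made up 74.3% of them in 5 mM K+ and 82.5% in 60 mM K+, whereas the share of Clcf1 was 9.89% and 3.64%.

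The promoters of the ligand genes that passed both thresholds are shown with their matches to the short motifs searched. Lif and the Il11 window shown held only the AP-1 motif, TGANTCA, whereas Il6 held this and other motifs. The sequences are the 250 bases before the RefSeq transcription start, on the strand of the gene, in build GRCm38.p6, with capitals for motif matches. They are those of Il6 (chr5:30012864-30013113, plus strand), Lif (chr11:4257318-4257567, plus strand) and the more downstream of the listed starts of Il11 (chr7:4778142-4778391, minus strand).
Il6: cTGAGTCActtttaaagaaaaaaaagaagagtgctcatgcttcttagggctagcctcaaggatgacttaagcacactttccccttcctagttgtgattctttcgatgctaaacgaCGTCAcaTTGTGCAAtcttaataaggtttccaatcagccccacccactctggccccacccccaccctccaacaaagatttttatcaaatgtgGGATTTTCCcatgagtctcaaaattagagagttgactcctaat
Lif: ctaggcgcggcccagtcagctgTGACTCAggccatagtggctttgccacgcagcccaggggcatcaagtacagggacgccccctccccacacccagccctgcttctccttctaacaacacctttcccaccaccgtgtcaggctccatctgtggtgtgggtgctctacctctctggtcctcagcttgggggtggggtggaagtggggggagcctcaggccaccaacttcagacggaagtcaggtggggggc
Il11: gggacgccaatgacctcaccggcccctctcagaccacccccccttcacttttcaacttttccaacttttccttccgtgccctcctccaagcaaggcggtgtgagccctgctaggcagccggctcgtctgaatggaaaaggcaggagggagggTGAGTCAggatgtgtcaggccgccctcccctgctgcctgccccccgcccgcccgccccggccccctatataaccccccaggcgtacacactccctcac

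Both strands of a window of 250 bases before to 50 after each start were searched. In Il6 the match to the NF-κB core GGNNTTTCC, read as GGATTTTCC, lay 43 to 35 bases before the start, and 5.82% of 32851 RefSeq windows held this motif. The CRE core TGACG lay on the opposite strand, as CGTCA, 135 to 131 bases before the start, and 20.8% of windows held it. Next to it, 128 to 121 bases before the start, stood TTGTGCAA, a match to the loose C/EBP motif TTNNGNAA found in 40.7% of windows. The AP-1 motif TGANTCA was found in Il6 as TGAGTCA, 249 to 243 bases before the start, in Lif as TGACTCA, 228 to 222 bases before it, and in Il11 as TGAGTCA, 98 to 92 bases before it. The motif was held by 7.81% of all windows. These matches did not overlap each other. Of the 9 genes with a window in the table (Clcf1 has no entry), 4 held the AP-1 motif, the fourth being Osmr, where it began 4 bases into the transcript. Counted by window, as in the share of all windows, these were 4 of 11, since Il11 and Lifr have more than 1 listed start. The window of the more upstream Il11 start held none of the motifs searched. The full CRE TGACGTCA and the C/EBP palindrome TTGCGCAA were held by 0 of the 9 genes and by 1.79% and 0.183% of windows. A match describes letters in this window and no binding was measured.

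**Figure D2:**
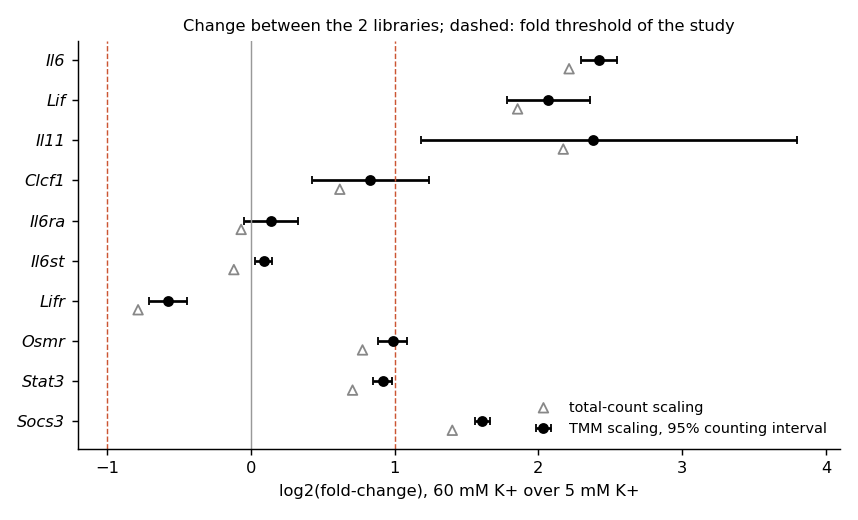
Log2(fold-change) of the 10 genes between the 60 mM K+ and 5 mM K+ libraries with TMM scaling (black, bars for the 95% counting interval) and with total-count scaling (grey triangles); dashed lines mark the fold threshold of 1. Il6, Lif, Il11 and Socs3 have intervals wholly above 1, and the points of Il6ra and Il6st change sign with total-count scaling.

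Il6st encodes gp130, the signal-transducing chain common to the family (chromosome 13, 113265216 to 113297068). It was the most abundant of the 4 receptor genes by FPKM, with 4607 reads in the control and 4575 in the depolarized library, or 409 and 436 CPM. Its log2(fold-change) was 0.09 [0.03 to 0.15] with TMM and -0.12 with total-count scaling, so it had no stable direction. Il6ra encodes the chain that binds IL-6 itself, which cells can also shed as a soluble receptor (chromosome 3, 89673246 to 89717084). It had 455 and 468 reads, a log2(fold-change) of 0.14 [-0.05 to 0.33], which turned to -0.07 with total-count scaling. The enzymes that shed this receptor were measured at -0.13 [-0.27 to 0.00] for Adam10 and -0.17 [-0.35 to 0.01] for Adam17, and neither passed the thresholds.

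Osmr and Lifr, the chains that pair with gp130 for oncostatin M and LIF, lie near each other on chromosome 15, at 6763577 to 6824313 and at 7079559 to 7147489. The changes of this pair differed in sign. Osmr had 1194 reads in the control and 2204 in the depolarized library, or 106 and 210 CPM, and its log2(fold-change) of 0.99 [0.88 to 1.09] fell just short of the threshold while its interval crossed it. Lifr had 1211 and 758 reads, or 107 and 72.2 CPM, a log2(fold-change) of -0.57 [-0.71 to -0.44]. It was the only one of the 10 genes with an interval below 0, beside 20.3% of genes with at least 10 reads. In 5 mM K+ the deposited FPKM, which are scaled by gene length, were 35.9 for Osmr and 33.9 for Lifr, with overlapping counting intervals, and in 60 mM K+ they were 61.6 and 19.7. The ratio of Osmr to Lifr in FPKM was therefore 1.06 in 5 mM K+ and 3.13 in 60 mM K+. With annotated exon lengths from GENCODE vM1 it was 2.11 and 6.21, so the near-equal levels in 5 mM K+ rest on the deposited lengths.

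Stat3, the transcription factor that these receptors activate, lies on chromosome 11 from 100746412 to 100800854. It had 3109 reads in the control and 5470 in the depolarized library, or 276 and 521 CPM. Its log2(fold-change) of 0.92 [0.85 to 0.98] was under the fold threshold, with a narrow interval that did not reach it. Exons of Stat3 and Stat5a overlap on opposite strands. No source says whether strand was used in counting, so reads from the shared stretch could not be told apart. Stat5a itself had 166 and 216 reads.

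Socs3, the feedback inhibitor, lies on the same chromosome from 117827393 to 117831361. It had 4161 reads in the control and 11839 in the depolarized library, or 369 and 1127 CPM, and was 3.05-fold higher in the depolarized library. Its log2(fold-change) was 1.61 [1.56 to 1.66]. By FPKM Socs3 ranked 249 of 21374 genes in 5 mM K+ and 78 in 60 mM K+. These ranks rest on the deposited lengths, which imply 1096 bases for Socs3, whose longest transcript in GENCODE vM1 has 2552. With that transcript length its level was 145 and 442 CPM per kilobase, against 362 and 957 FPKM. Its promoter is shown because it alone of the 9 genes searched held the STAT motif TTCNNNGAA, as the palindrome TTCTTAGAA, 154 to 146 bases before the start. That motif was held by 8.30% of RefSeq windows. The sequence is that of chr11:117969367-117969616 on the minus strand in GRCm38.p6, with the match in capitals.
Socs3: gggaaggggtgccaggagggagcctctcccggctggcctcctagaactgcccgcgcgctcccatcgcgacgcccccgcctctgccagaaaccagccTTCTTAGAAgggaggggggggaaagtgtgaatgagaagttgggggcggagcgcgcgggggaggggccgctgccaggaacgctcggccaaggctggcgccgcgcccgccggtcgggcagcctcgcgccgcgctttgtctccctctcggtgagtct

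**Figure D3:**
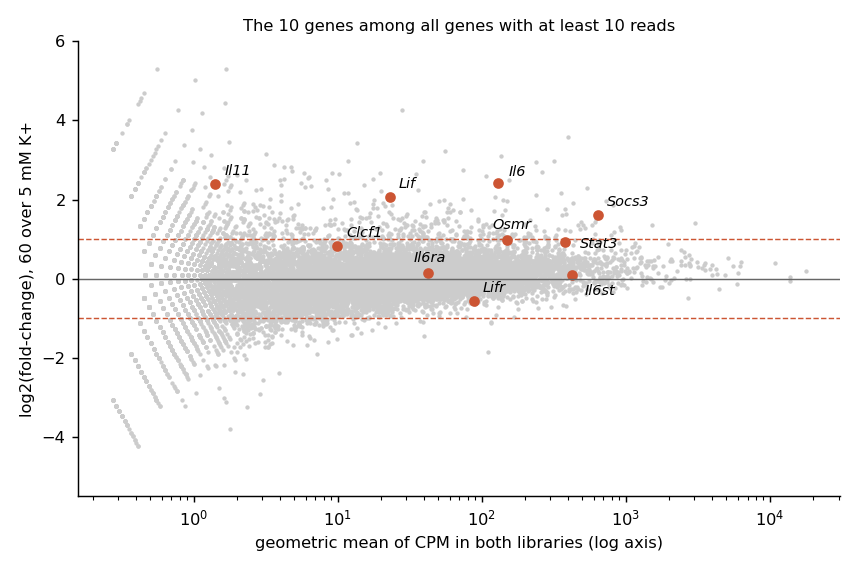
Log2(fold-change) against the geometric mean of CPM in both libraries (log axis) for genes with at least 10 reads and a read in each library (grey), with the 10 genes in orange and the fold threshold of 1 dashed. Il6, Lif, Il11 and Socs3 stand above the dashed line at 1, and Il11 lies where counting error spreads the grey points widely.

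Compared per length within a library, Socs3 had the highest deposited FPKM of the 10 genes, 362 in 5 mM K+ and 957 in 60 mM K+, and Il11 the lowest, 0.501 and 2.26. In the control the order was Socs3, Stat3 (176), Il6st (154), Il6 (47.2), Osmr, Lifr, Il6ra (7.25), Clcf1 (4.83), Lif (4.43) and Il11. Clcf1 and Lif, like Osmr and Lifr, did not differ there beyond the counting intervals of their deposited FPKM. In 60 mM K+ Il6 stood above Il6st, at 219 FPKM against 142, and Lif at 16.0 FPKM stood above Clcf1 at 7.42 and Il6ra at 6.92. The intervals of Clcf1 and Il6ra overlapped. The Il6 level was 6.52 times the Il6ra level in 5 mM K+ and 31.6 times in 60 mM K+, whereas Il6st was 21.3 and 20.6 times Il6ra.

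These ratios between genes rest on the gene length used by the authors. Dividing counts by FPKM gave 1687 bases for Stat3, whose longest transcript in GENCODE vM1 has 6042 bases, and 5991 bases for Il6ra, whose single annotated transcript has 3343. With annotated lengths Il6st was 6.50 times Il6ra in 5 mM K+ and 6.28 times in 60 mM K+, and Il6 was 4.27 and 20.7 times Il6ra. Il6 then exceeded Stat3 in both libraries, and Il6st exceeded Stat3 in 5 mM K+. Osmr in 5 mM K+ stood at 21.9 and Lifr at 10.4 CPM per kilobase of annotated exons. In 60 mM K+ the order of Lif and Il6ra turned, with Lif at 10.8 and Il6ra at 13.3, and Lifr at 6.99 lay below both. Log2(fold-change) of a gene between libraries does not depend on its length.

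**Figure D4:**
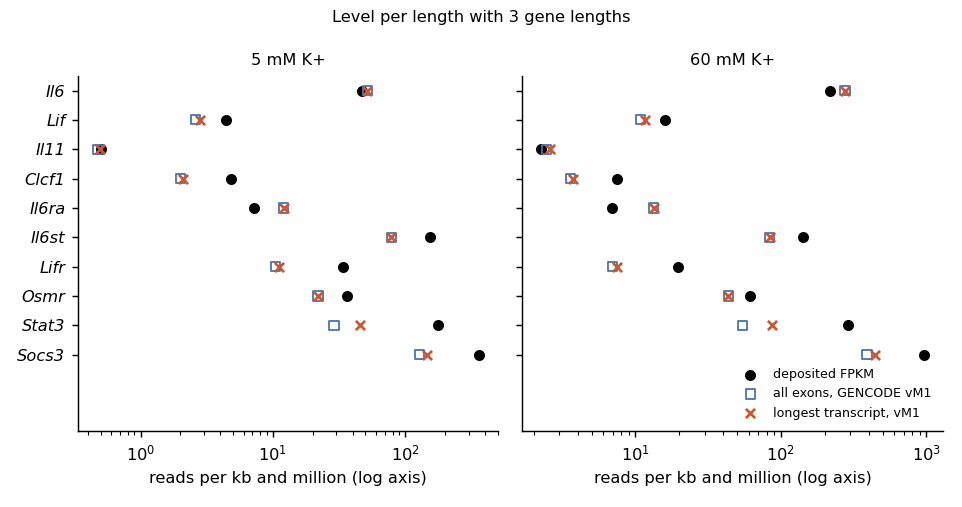
Level per length of the 10 genes (log axis) in the 5 mM K+ library (left) and the 60 mM K+ library (right), as deposited FPKM (black) and as CPM per kilobase over all annotated exons (blue squares) or the longest transcript (orange crosses). Socs3 is highest and Il11 lowest with every length, while Stat3 shifts most, from 176 FPKM to 29.0 over all exons in 5 mM K+.

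Other genes of the pathway were taken from 10 lists with 79 genes, of which 67 had at least 10 reads. In these lists 14 genes passed both thresholds upward and 0 downward, beside 2.11% and 1.10% of all genes. Of the 67 genes, 46 had a log2(fold-change) above 0, beside 49.6% of all genes with at least 10 reads. These lists were chosen with earlier results of these data known, so nothing is read from their counts against the background. Of 7 other ligand genes, none passed. Ctf1, which encodes cardiotrophin 1, had 41 and 52 reads. Osm, the gene of oncostatin M, had 1 and 0 reads, Ctf2 had 2 and 0, and Cntf, Il27 and Ebi3 had 0 reads in both libraries. All were under the floor of 3 reads, so Osm was not detectable at this depth. Among other receptor chains, Cntfr, which binds ciliary neurotrophic factor and the Clcf1 product, passed both thresholds with 109 and 299 reads, a log2(fold-change) of 1.56 [1.24 to 1.89]. Il11ra1, the receptor for IL-11, had 1790 and 1768 reads, a log2(fold-change) of 0.08 [-0.01 to 0.18]. Il11ra2, its close copy, was not analysed here.

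None of the 4 Janus kinase genes and none of the 6 other STAT genes passed the thresholds. Jak1, the main kinase on gp130, had 1117 and 1574 reads, a log2(fold-change) of 0.60 [0.48 to 0.71]. Jak2 was measured at 0.15 [0.01 to 0.29] and Tyk2 at -0.30 [-0.55 to -0.05]. Of the STAT genes, Stat6 was measured at -0.04 [-0.15 to 0.07] and Stat5b at -0.23 [-0.39 to -0.07]. The median was 0.22 for the kinases and -0.04 for the STAT genes.

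Among 7 other SOCS genes, 1 passed, Cish, a feedback inhibitor best known downstream of STAT5, with 44 reads in the control and 199 in the depolarized library and a log2(fold-change) of 2.28 [1.80 to 2.78]. Socs2 lay just under the threshold at 0.98 [0.79 to 1.17], Socs1 was measured at 0.40 [-0.13 to 0.93], and Socs4 at -0.31 [-0.55 to -0.07]. Of 8 other brakes, the tyrosine phosphatase genes Ptpn1 and Ptpn2, whose products act on Janus kinases and STAT proteins, passed. Ptpn1 had 706 and 1552 reads, a log2(fold-change) of 1.24 [1.11 to 1.37], and Ptpn2 had 317 and 853 reads, 1.53 [1.34 to 1.72]. Ptpn11, which encodes the phosphatase SHP2, was measured at -0.05 [-0.14 to 0.03]. Pias3, which encodes an inhibitor of STAT3, was lower in 60 mM K+, with 563 and 382 reads and -0.46 [-0.65 to -0.27]. The list medians were 0.16 for the SOCS genes and 0.14 for the other brakes, and both turned negative with total-count scaling, to -0.048 and -0.070.

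**Figure D5:**
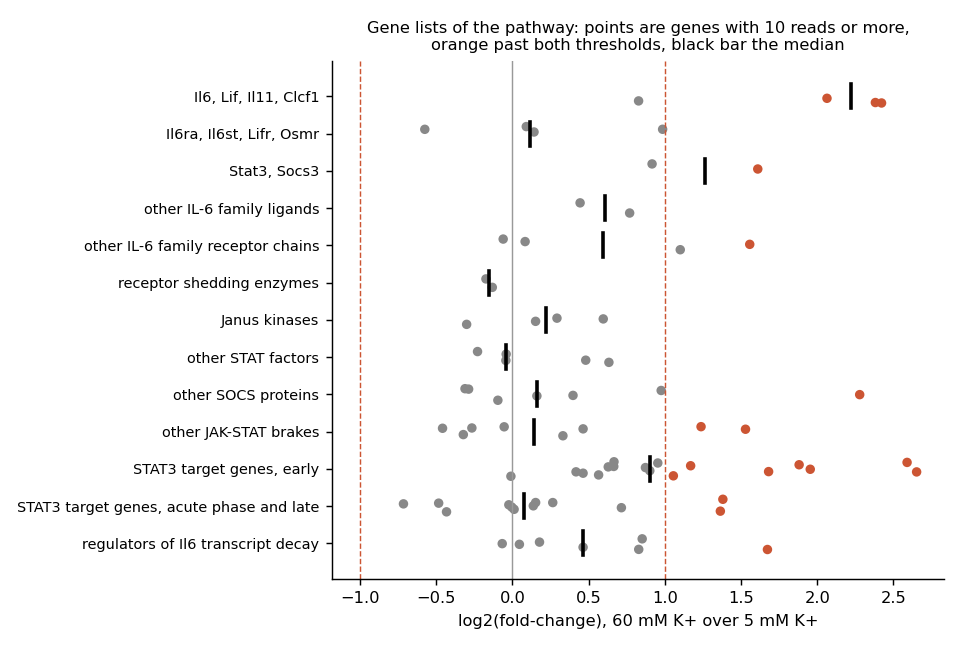
Log2(fold-change) of genes with at least 10 reads in the lists of the pathway, with genes past both thresholds in orange and list medians as black bars; dashed lines mark the fold threshold of 1. The early STAT3 targets hold 7 orange points and a median of 0.90, whereas Janus kinases and other STAT factors hold 0.

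STAT3 targets were split into early and late ones. Of 17 early targets, 7 passed both thresholds upward, beside 2.11% of all genes. For 16 the counting interval lay above 0, beside 25.0% of genes with at least 10 reads. The list median was 0.90, beside -0.0047 for all genes with at least 10 reads. This list was chosen with earlier results of these data known, so nothing is read from these values against the background. Bcl3, a nuclear IκB protein, had 156 and 914 reads, a log2(fold-change) of 2.65 [2.41 to 2.91]. Tnfaip3, which encodes the ubiquitin-editing enzyme A20, had 490 and 2749 reads, 2.59 [2.45 to 2.73]. Both of these genes are equally known as NF-κB targets, as is Irf1, which was measured at 1.06 [0.95 to 1.17]. Pim1, a kinase gene, had 861 and 3110 reads, 1.95 [1.84 to 2.06], Il4ra, a receptor gene, was measured at 1.88 [1.71 to 2.06], Myc at 1.68 [1.51 to 1.86] and Mcl1, a survival gene, at 1.17 [1.13 to 1.21]. Those with the most reads, Fos, Junb, Zfp36 and Gadd45g, were measured at 0.42, 0.67, 0.46 and 0.67, under the threshold. Bcl6, a transcriptional repressor gene, was measured at -0.01 [-0.19 to 0.17].

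Of 17 acute-phase and late targets, 12 had at least 10 reads and 2 passed upward, Timp1 and Lcn2, beside 2.11% of all genes. Timp1, an inhibitor of matrix metalloproteinases, was measured at 1.38 [1.10 to 1.66]. Lcn2, which encodes lipocalin 2, had 40 and 96 reads and was measured at 1.36 [0.82 to 1.93]. The complement gene C3 had 2640 and 2454 reads, Bcl2l1 had 1587 and 1491, and Cp had 1136 and 1042. Serpina3n, a protease inhibitor gene, had 643 and 984 reads, a log2(fold-change) of 0.72 [0.57 to 0.86], and Ccnd1, a cyclin gene, was lower in 60 mM K+ at -0.71 [-0.98 to -0.45]. The serum amyloid genes Saa1, Saa2 and Saa3 had between 0 and 5 reads. The list median was 0.07, and -0.13 with total-count scaling. Among 7 genes for proteins that control decay of the Il6 transcript, Zc3h12a, which encodes the endonuclease Regnase-1 that cleaves it, passed with 447 and 1329 reads, a log2(fold-change) of 1.67 [1.52 to 1.83]. Arid5a, whose product protects the transcript, was measured at 0.83 [0.76 to 0.90] and Zfp36l1 at 0.85 [0.72 to 0.98]. Zfp36l2 was measured at 0.18 [0.07 to 0.29], Elavl1 at 0.05 [-0.12 to 0.21] and Khsrp at -0.07 [-0.21 to 0.08], and the list median was 0.46.

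The genes nearest to each in log2(FPKM) over the 2 libraries were Rnd1 and Icam1 for Il6, at distances of 0.235 and 0.369, Gm15344 and Plscr1 for Lif (0.108 and 0.240), Oasl1 and Nptx2 for Il11 (0.125 and 0.179), Adc and Ptpru for Clcf1 (0.0601 and 0.0711), and Hspa5 and H3f3b for Socs3 (0.178 and 0.214). With 2 values per gene, such likeness is a description of 2 libraries.

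The markers of the labelled tissue were present, with smooth muscle genes between 31.0 FPKM (Tagln) and 12480 FPKM (Acta2) in 5 mM K+ and a summed level of 38647 CPM in 5 mM K+ and 42366 CPM in 60 mM K+. Leukocyte markers were scarce. The 7 macrophage markers analysed summed to 43.1 CPM in 5 mM K+ and 35.7 CPM in 60 mM K+, with 0 of 7 past the thresholds. Adgre1, listed under the symbol Emr1 at 0.976 and 0.571 CPM, was left out of these 7. Of these 7, 1 had an interval above 0 and 2 had an interval below 0, beside 25.0% and 20.3% of genes with at least 10 reads. Of 5 neutrophil markers, S100a9, Ly6g and Retnlg had 0 reads in both libraries, and the list had 2 and 1 reads in all, whereas 5 lymphocyte markers had 7 and 9 reads. Endothelial markers summed to 3069 and 4189 CPM with a median log2(fold-change) of 0.28, fibroblast markers to 4038 and 3714 CPM with a median of -0.18, and adipocyte markers to 125 and 105 CPM. Of the 7 endothelial markers, 5 had an interval above 0, among them Cdh5 at 0.83 and Pecam1 at 0.50, and 1 had an interval below 0. The latter, the endothelial receptor gene Kdr, had 168 and 73 reads and passed downward at -1.10. The adipocyte list had a median of -0.90, and its sum came mostly from Fabp4, with 1060 and 951 reads. Of its 6 genes, 2 passed both thresholds downward, Plin1 at -2.39 and Adipoq at -1.04, beside 1.10% of all genes. Among the 5 adipocyte genes with at least 10 reads, 3 had an interval below 0, beside 20.3% of such genes. The interval of 1, Lep with only 1 and 9 reads, lay above 0, beside 25.0%. Other transcripts also differed between these 2 libraries. Heat shock genes passed upward in 4 of 6 cases and pancreatic genes in 4 of 6 cases, beside 2.11% of all genes. Heat shock genes summed to 1991 and 5072 CPM, and pancreatic genes had 127 and 408 reads in all. The part of these marker changes in the differences of Il6, Lif, Il11 and Socs3 was not tested.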

How the data were processed

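RNA of the 5 mM K+ and 60 mM K+ libraries was sequenced commercially after a poly-A selecting kit that is not described as strand-specific. Reads were mapped by the authors with TopHat2 on mm9, and per gene the authors deposited unnormalized counts and, separately, FPKM. Submitters' processing notes list TopHat2 2.0.12, HTSeq 0.6.1 and edgeR 3.0.8, and the builds mm8 and mm9. The annotation is not given in the sources used here. Of the listed Ensembl IDs, 32601 are in GENCODE vM1 (mm9), from which symbols, positions and lengths were taken, and 22972 are not. Those in vM1 hold 99.09% and 99.15% of the reads.

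TMM library sizes came from edgeR 4.0.16 (R 4.3.3). Zero counts were set to 0.5. Exact intervals are 95% Clopper-Pearson intervals of the share of reads in the 60 mM K+ library or, for levels, Poisson intervals. A reimplementation of the DEGSeq random-sampling model was run on all genes with a read, with Benjamini-Hochberg adjustment. It was also run on simulated counts that held counting error only, which cannot show how it handles spread between animals. The model has no replicate term. Promoters come from RefSeq (GRCm38.p6). Alternatives were other scalings (DESeq2 1.42.0), filters, tests and assumed spreads, and FPKM with pseudocounts of 0.1 and 1. The 10 genes and all lists were chosen with earlier results of these data known. From each list, genes past both thresholds are named, then up to 4 more by reads, some further members being named after their values were seen. Values of some list members are not reported here.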

Additional observations from a re-analysis of the deposited data

How the results depend on the processing

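With 1 library per condition, the settings below bear on counting and scaling, and none measures how animals differ. No paired analysis was possible because the design holds 1 library for each K+ solution. Upper-quartile and median-of-ratios scaling kept every value of the 10 genes inside its counting interval and every count of calls within 1.5 times. Total-count scaling lowers each log2(fold-change) by 0.21, by construction. It gave 2.21 for Il6, -0.067 for Il6ra, -0.12 for Il6st, -0.78 for Lifr, 0.78 for Osmr, 0.71 for Stat3 and 1.40 for Socs3, and log2(FPKM + 0.1) gave -0.066 for Il6ra and the same values to 2 decimals for the other genes named here. With log2(FPKM + 1) the values were 2.19 for Il6, 1.65 for Lif, 1.12 for Il11, -0.058 for Il6ra, -0.12 for Il6st, -0.75 for Lifr, 0.76 for Osmr, 0.70 for Stat3 and 1.40 for Socs3, since a pseudocount shrinks low genes. Il6, Lif, Il11 and Socs3 passed both thresholds with every scaling, with both filters on low counts, with the exact binomial test, with the interval end nearest 0 as the value, and with an assumed coefficient of variation of 0.1. With 0.2, 2 of the genes passed (Il6 and Lif), and with 0.4, 0 passed. Over all genes, 452 passed upward and 235 downward. These counts were 307 and 542 with total-count scaling, 349 and 58 with an assumed coefficient of variation of 0.1, 65 and 8 with 0.2, 0 and 0 with 0.4, and 261 and 62 with the nearest interval end. Thus the share of upward calls was lower with total counts.

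Medians of lists moved as follows. With total-count scaling those of the other SOCS genes and of the late targets were negative, -0.048 and -0.13. Medians with that scaling were 0.014 for Janus kinases, -0.070 for the other brakes, 0.69 for early targets and 0.26 for regulators of transcript decay, with log2(FPKM + 0.1) they were 0.013, -0.070, 0.69 and 0.26, and with log2(FPKM + 1) they were 0.0056, -0.073, 0.69 and 0.25. The median of other receptor chains, 0.59, was 0.062 with log2(FPKM + 1) and 0.084 with at least 50 reads, that of other brakes was -0.054 with at least 50 reads, and that of other ligands was -0.23 without a filter instead of 0.61. Between filters the genes in these medians differ, by construction. Il6st per Il6ra changed from 21.3 and 20.6 to 6.50 and 6.28 with annotated lengths, and Il6 per Il6ra from 6.52 and 31.6 to 4.27 and 20.7. These lengths were added after the values were seen. Counts of genes with a promoter motif stayed within 1.5 times with only the bases before the start.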
